A study of Mus musculus with 6 samples.

Results

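The 6 mRNAs described here are those that mitochondrial DNA contributes to respiratory complexes III, IV and V: mt-Cytb of complex III, mt-Co1, mt-Co2 and mt-Co3 of complex IV (cytochrome c oxidase), and mt-Atp6 and mt-Atp8 of complex V (ATP synthase). They were taken by gene symbol from a table of 26191 genes, and all 6 were found. Together with 7 for subunits of complex I they cover the 13 protein-coding genes of mitochondrial DNA. Each gene is counted here as an mRNA of its own, although some overlap in their annotation and can share a molecule. Expression was measured by RNA sequencing of mouse hearts at embryonic day 12. There were 3 control libraries (Ctrl, genotype Mrps5 fl/fl) and 3 mutant libraries (cKO, genotype Mrps5 fl/fl; cTNT-Cre), each from pooled hearts, so that the floxed Mrps5 alleles were carried by both groups and the cTNT-Cre transgene only by the mutants. The Cre is driven by the cardiac troponin T promoter and deletes Mrps5 in cardiomyocytes, while the other cells of the heart keep the gene. Control and mutant embryos were littermates of a cross between Mrps5 fl/+; cTNT-Cre and Mrps5 fl/fl mice. Genotype and age follow the sample labels, whereas a legend of the study writes the mutants as heterozygous for the floxed allele and its text gives a slightly later stage. If the mutants were heterozygous, their values would stand for the loss of a single allele.

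Mitochondrial DNA is transcribed as long precursors that run over many genes, and most of the mRNAs are released when the tRNAs lying between them are cut out. Their proteins are made only by the mitochondrial ribosome, of which MRPS5 is a small-subunit protein. In heart muscle the complexes built from them carry electrons from ubiquinol to oxygen and use the resulting proton gradient to make ATP. The comparison asks how the levels of these mRNAs, the templates of that ribosome, differ when one of its proteins is deleted in the developing cardiomyocyte.

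Where no tRNA separates neighbours, annotated genes can adjoin or overlap. The joins between mt-Atp8, mt-Atp6 and mt-Co3 are shown because they bear on how fragments are shared between these entries. Each sequence was read from GENCODE M21 transcripts (build GRCm38), 5′ to 3′ on the coding strand, with the start codon of the downstream gene and the last codon of the upstream gene in capitals.
mt-Atp8 into mt-Atp6: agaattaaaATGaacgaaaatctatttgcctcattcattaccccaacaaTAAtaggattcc
mt-Atp6 into mt-Co3: taatacaTAATGacccacc
The first join holds 43 bases that belong to both mt-Atp8 and mt-Atp6, and the second a single shared base (1). The values of mt-Atp8 and mt-Atp6 are therefore not independent of each other, also where members are counted. The annotated lengths were 1545 bases for mt-Co1, 684 for mt-Co2, 784 for mt-Co3, 681 for mt-Atp6, 204 for mt-Atp8 and 1144 for mt-Cytb. In gene order along mitochondrial DNA the members lie behind mt-Nd1 and mt-Nd2 in the sequence mt-Co1, mt-Co2, mt-Atp8, mt-Atp6, mt-Co3, and mt-Cytb comes last of all.

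Several members have near-identical copies in the nuclear genome. Every 50-base window of mt-Co2 (635 of 635) also occurred in annotated nuclear pseudogene transcripts, as did 99.5% of the windows of mt-Atp6, 99.9% of those of mt-Co3 and 51.1% of those of mt-Co1. None of the windows of mt-Atp8 (0 of 155) or mt-Cytb (0 of 1095) did. None of these pseudogenes is listed in the deposited table, so fragments that fit both places cannot be followed and the levels of the copied members are uncertain to that extent.

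The values were FPKM, fragment numbers scaled by transcript length and library size, summed over a gene's transcripts. They do not give read numbers. The depth relative to Ctrl replicate 1, read from low values, ran from 1.15 to 1.40 in the other control libraries and from 1.18 to 1.62 in the mutants, and summed FPKM from 454692 to 515952. Mrps5 itself (ENSMUSG00000027374) stood at 9.65, 11.4 and 10.4 FPKM in Ctrl replicates 1, 2 and 3 and at 5.28, 7.41 and 10.4 in cKO replicates 1, 2 and 3. The library labelled cKO replicate 3 thus lay at the control level of Mrps5, and the counts of calls for the members and for each gene list of the respiratory chain are given with and without it. The labels call the libraries of a group biological repeats, and p-values measure the spread between these pools.

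All 6 members were lower in the mutant hearts, and for each of them every cKO library lay below every Ctrl library. Mean FPKM in the mutants was between 64.8% (mt-Atp6) and 81.4% (mt-Co1) of the control mean. On the log2(FPKM + 1) scale the differences ran from -0.63 to -0.30, with a median of -0.53, against a median of -0.02 over the 13260 genes tested. Among those genes 13% had every cKO library below every Ctrl library and 55.0% were lower by sign alone. By limma, 5 of the 6 members had an unadjusted p under 0.05 and were lower, where 9.43% of all genes did, and none (0) of the 6 had an adjusted p under 0.05, where 0.0302% of all genes did and were lower (0.0830% in either direction). Without the library labelled cKO replicate 3 the groups of all 6 still did not overlap, as for 17.6% of all genes in that direction, and 3 members were lower with an unadjusted p under 0.05, against 8.82% of all genes. The count of members was 1 without Ctrl replicate 3 or without cKO replicate 1, where 1066 and 962 of 13260 genes were called lower. It was 0 with a GC correction (1113 of 13260 genes) or with no filter on low values (1713 of 22153). With all libraries in the main fit 1251 of 13260 genes were called lower. All differences were negative in these fits, but some were much smaller. Quantile normalization gave -0.01 for mt-Cytb, -0.14 for mt-Co3 and -0.31 for mt-Atp8. The GC correction gave -0.41 for mt-Atp6, -0.27 for mt-Atp8 and -0.17 for mt-Co1. The members were among the most abundant entries of the table, ranked from 4 to 12 of 26191 genes by mean FPKM.

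The catalytic core of cytochrome c oxidase is formed by the proteins of mt-Co1 and mt-Co2. mt-Co1, which encodes the subunit that holds the site of oxygen reduction, was at 10253, 10214 and 10330.3 FPKM in Ctrl replicates 1, 2 and 3 and at 8146, 9038 and 7895 FPKM in cKO replicates 1, 2 and 3. It was the most even member among controls, with a coefficient of variation of 0.577%. In the main fit it had the smallest difference of the 6 on the log2 scale. Quantile normalization gave smaller differences for mt-Co2 (-0.45), mt-Atp8 (-0.31), mt-Co3 (-0.14) and mt-Cytb (-0.01) than for mt-Co1 (-0.48). The level of mt-Co1 averaged 10266 ± 59.2 FPKM in Ctrl and 8359.5 ± 601 FPKM in cKO hearts (SD, n = 3 each). The difference was -0.30 on the log2 scale (limma, SE 0.19, adjusted p = 0.497), and its 95% interval, from -0.73 to 0.14, included 0.

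mt-Co2, encoding the subunit that takes electrons from cytochrome c, was at 7989.6, 6179 and 6928 FPKM in the controls and 5187, 5608 and 4181 FPKM in the mutants, in the order of replicates 1 to 3. The highest mutant library reached 90.8% of the lowest control library. The averages were 7032 ± 909.9 and 4992 ± 733 FPKM (SD, n = 3 each), -0.50 apart on the log2 scale (limma, SE 0.20, adjusted p = 0.301). mt-Co3, the third core subunit, which carries no redox centre, was at 5918, 4447 and 5659.8 FPKM in Ctrl replicates 1, 2 and 3 and at 3724, 3563 and 3467 FPKM in the mutants. The mutant libraries were close together, within 3.62% (coefficient of variation), while the controls varied by 14.7%. Between groups mt-Co3 differed by -0.56 (log2, limma, SE 0.17, adjusted p = 0.212), with the smallest adjusted p of the members.

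In the main fit the log2 differences of the ATP synthase mRNAs were close to that of mt-Co3. Of these 3, mt-Co3 was the most negative with the GC correction and with the erythroid covariate. It was the least negative with quantile normalization, at -0.14 against -0.73 for mt-Atp6 and -0.31 for mt-Atp8. The same held with the cardiomyocyte covariate, at -0.41 against -0.60 and -0.56. mt-Atp6 encodes the membrane subunit through which protons pass, and was at 10445, 8031 and 9603 FPKM in Ctrl replicates 1, 2 and 3 and at 6053, 6881 and 5264 FPKM in cKO replicates 1, 2 and 3. No mutant library came above 85.7% of the lowest control library. Averages of 9359 ± 1225 in Ctrl and 6066 ± 808 FPKM in cKO (SD, n = 3 each) gave -0.63 on the log2 scale (limma, SE 0.21, adjusted p = 0.230). mt-Atp8, which encodes a small subunit of the stator region, was at 5788, 4822 and 5706 FPKM in the controls and 3383, 4454 and 3064 FPKM in the mutants. Of all members its groups came closest, the highest mutant library standing at 92.4% of the lowest control. With averages of 5439 ± 535 and 3634 ± 728 FPKM (SD, n = 3 each) it differed by -0.60 (log2, limma, SE 0.20, adjusted p = 0.230). The ratio of mt-Atp6 to mt-Atp8, whose reading frames share the 43 bases shown above, averaged 1.72 ± 0.0759 in Ctrl and 1.68 ± 0.126 in cKO hearts (SD, n = 3 each), a difference within the spread of the libraries (p = 0.80, exact two-sided permutation test, for which 0.10 is the smallest p that 3 against 3 libraries allow).

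mt-Cytb encodes cytochrome b, the only subunit of complex III that mitochondrial DNA provides. It was at 5199, 5749 and 5452 FPKM in Ctrl replicates 1, 2 and 3 and at 3707, 4635 and 3647 FPKM in cKO replicates 1, 2 and 3. The mutant libraries spread more widely than the controls, with averages of 5467 ± 275 in Ctrl and 3996 ± 554 FPKM in cKO (SD, n = 3 each). On the log2 scale the difference was -0.46 (limma, SE 0.17, adjusted p = 0.279).

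**Figure D1:**
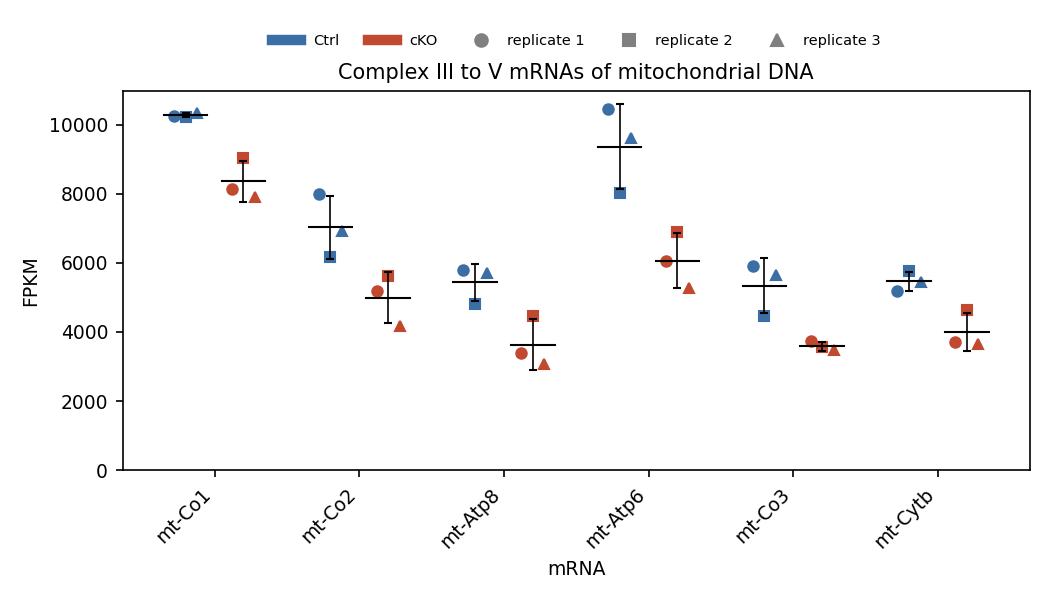
FPKM of the 6 mRNAs in each library, with control libraries in blue, cKO libraries in red, the symbol shape giving the replicate number, and black bars showing mean and SD (n = 3). For every mRNA the 3 red symbols lie below the 3 blue ones, by the widest margin for mt-Co3 (highest mutant at 83.7% of the lowest control) and the narrowest for mt-Atp8 (92.4%).

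The order of the levels by mean FPKM was the same in both groups, mt-Co1 first, then mt-Atp6, mt-Co2, mt-Cytb, mt-Atp8 and mt-Co3. In control hearts only the steps from mt-Atp6 to mt-Co2 and from mt-Co2 to mt-Cytb were free of overlap between libraries. The values of mt-Co1 and mt-Atp6 overlapped there, as did those of mt-Cytb, mt-Atp8 and mt-Co3, which averaged 5467, 5439 and 5342 FPKM. In the mutants mt-Co1, at 7895 FPKM or more, stood clear of mt-Atp6, at 6881 or less, and all later neighbours overlapped. Over the 6 libraries the log2 levels of the members varied together, with Pearson correlations from 0.739 (mt-Co3 with mt-Cytb) to 0.984 (mt-Co2 with mt-Atp6). These are descriptions over libraries that differ in genotype, and part of each comes from the difference between groups.

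Among the mutant libraries cKO replicate 2 was nearest the controls and the library labelled cKO replicate 3 farthest from them. The mean log2 level of the 6 members lay -0.52, -0.34 and -0.66 from the control mean in cKO replicates 1, 2 and 3, and within -0.12 to 0.09 in the control libraries. mt-Co3 went against this order, since its value in cKO replicate 2 (-0.57) was below that in cKO replicate 1 (-0.51). For all 6 members the lowest of the 6 libraries was the one labelled cKO replicate 3, in which Mrps5 was at the control level.

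Complex I mRNAs encoded beside them did not all behave alike. Of the 7, 5 were lower and 2 higher by sign, 2 (mt-Nd4l and mt-Nd4) had every cKO library below every Ctrl library and an unadjusted p under 0.05, and none (0) had an adjusted p under 0.05 from limma. Over all genes 55.0% were lower by sign, 13% separated in that direction and 9.43% called lower. The median log2 difference of the 7 was -0.23, but 0.0584 with the GC correction, and -0.047 without the library labelled cKO replicate 3 against -0.37 without cKO replicate 2. The complex I counts were the same without the library labelled cKO replicate 3, where 17.6% of all genes separated and 8.82% were called lower. mt-Nd4l, at -0.81 (limma, SE 0.18, adjusted p = 0.146), lay below every member. mt-Nd1, the first mRNA of the gene order, was at 7851, 8854 and 8305 FPKM in Ctrl replicates 1, 2 and 3 and at 10057, 12575 and 6376 FPKM in cKO replicates 1, 2 and 3. It was above the control range in cKO replicates 1 and 2 and below it in the library labelled cKO replicate 3. mt-Nd2 had the same arrangement except that cKO replicate 1 (2533 FPKM) lay within the control range, and it differed by 0.03 (log2, SE 0.27) where mt-Nd1 differed by 0.16 (SE 0.27). Both intervals were wide, from -0.47 to 0.79 for mt-Nd1 and from -0.59 to 0.64 for mt-Nd2. Averaged over the 7 complex I mRNAs the log2 level lay -0.22, 0.01 and -0.61 from the control mean in cKO replicates 1, 2 and 3. Relative to that average the members stood at -0.30, -0.35 and -0.05 log2 units in these libraries, and at 0.11, -0.18 and 0.06 in Ctrl replicates 1, 2 and 3, with no test made, so that only cKO replicates 1 and 2 lay below the control range.

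**Figure D2:**
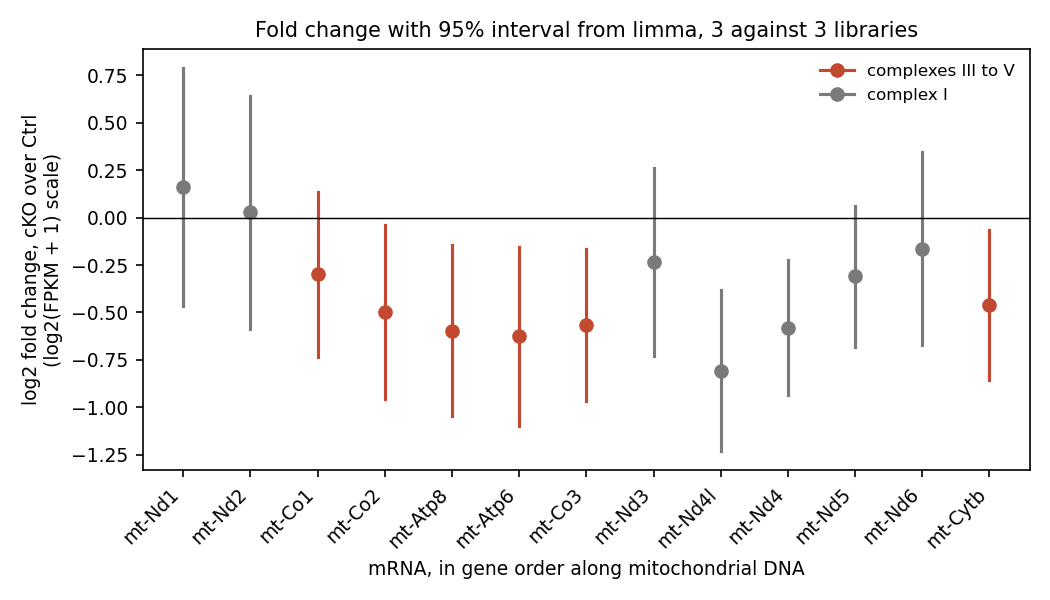
Log2 fold change of cKO over Ctrl (log2(FPKM + 1) scale) with its 95% interval from limma for the 13 mRNAs in gene order along mitochondrial DNA, complexes III to V in red and complex I in grey. The intervals of mt-Co2, mt-Atp8, mt-Atp6, mt-Co3, mt-Cytb, mt-Nd4l and mt-Nd4 lie below 0, whereas that of mt-Co1 reaches 0.14 and those of mt-Nd1 and mt-Nd2 are centred at 0.16 and 0.03.

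Read along the gene order, the log2 fold change went from 0.16 at mt-Nd1 and 0.03 at mt-Nd2 through -0.30 at mt-Co1 and -0.50 at mt-Co2 to -0.60 at mt-Atp8 and -0.63 at mt-Atp6. From mt-Co3 onward it had no single direction. The values were -0.56 at mt-Co3, -0.23 at mt-Nd3, -0.81 at mt-Nd4l, -0.58 at mt-Nd4, -0.31 at mt-Nd5 and -0.46 at mt-Cytb. mt-Nd6, the only mRNA read from the other strand, was at -0.16. Nuclear copies varied along the same order: the 7 mRNAs with over 50% of their windows in nuclear pseudogenes had log2 fold changes from -0.81 to -0.23 (median -0.56), and the other 6 from -0.60 to 0.16 (median -0.24). The part of these copies in the result was not tested.

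**Figure D3:**
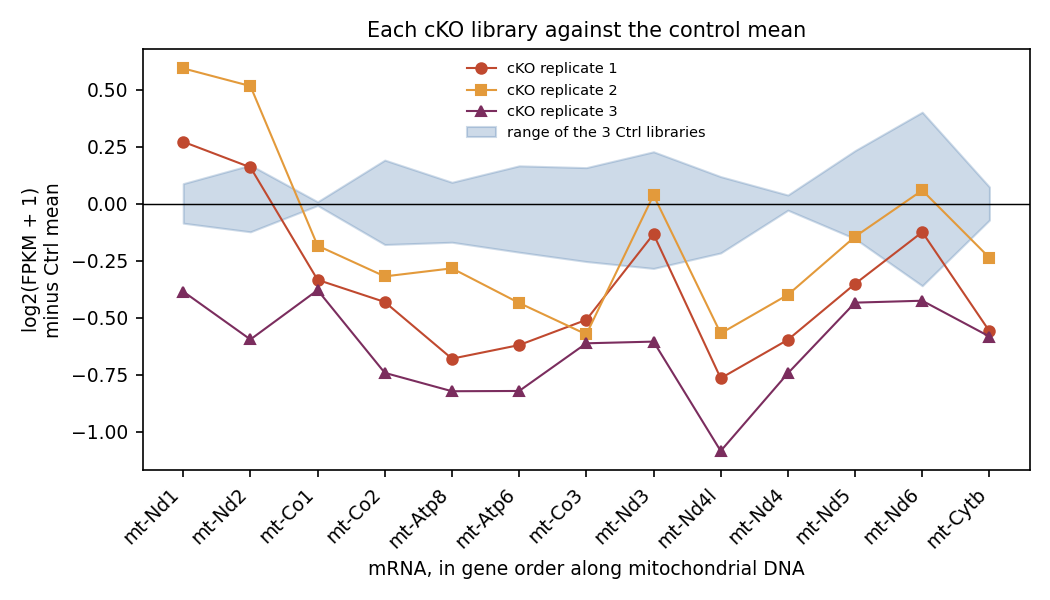
Log2(FPKM + 1) of each cKO library minus the control mean, for the 13 mRNAs in gene order, with the range of the 3 control libraries as a blue band; lines only join the points of a library. From mt-Co1 to mt-Co3 all cKO points lie under the band, while at mt-Nd1 cKO replicates 1 and 2 lie above it (0.27 and 0.59) and the library labelled cKO replicate 3 below it (-0.39).

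Each member was next expressed as a share of the summed FPKM of all 13 mitochondrial mRNAs in its library, which sets aside a difference common to the whole pool. The 6 members together made up 63.4%, 58.8% and 62.0% in Ctrl replicates 1, 2 and 3 and 54.9%, 53.5% and 60.4% in cKO replicates 1, 2 and 3. The library labelled cKO replicate 3 lay within the control range, and the other mutants below it. On average this was 61.4% ± 2.40 in Ctrl and 56.3% ± 3.68 in cKO hearts (SD, n = 3 each), a difference of -5.11 points that was -0.62 points when mt-Nd1 and mt-Nd2 were left out of the denominator. Complex I mRNAs differed in both directions. The share of mt-Nd1 was higher, going from 12.0% ± 1.14 in Ctrl to 17.3% ± 2.96 in cKO (SD, n = 3 each), without overlap between the groups (p = 0.10, exact two-sided permutation test, the smallest possible). Those of mt-Nd4l (5.37% in Ctrl, 3.94% in cKO) and mt-Nd4 (5.77% and 4.97%) were lower, also without overlap and at the same exact permutation p.

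With all 13 mRNAs in the denominator, the shares of the ATP synthase mRNAs were free of overlap between the groups and those of the other members were not. The mt-Atp6 and mt-Atp8 entries share bases, so their values are not independent of each other. mt-Atp6 took 14.5%, 12.0% and 13.6% of the pool in Ctrl replicates 1, 2 and 3 and 11.0%, 10.8% and 11.6% in cKO replicates 1, 2 and 3. mt-Atp8 took 8.05%, 7.18% and 8.10% in the controls and 6.15%, 6.97% and 6.73% in the mutants. For both, every mutant share was below every control share, by -2.26 percentage points between the means for mt-Atp6 and -1.16 for mt-Atp8 (each p = 0.10, adjusted p = 0.30 over the 6 members, exact two-sided permutation test, which cannot pass 0.05 with 3 against 3 libraries). Without mt-Nd1 and mt-Nd2 in the denominator mt-Atp6 remained at p = 0.10 and mt-Atp8, at -0.71 points, had p = 0.20, as it did as a centred log-ratio (exact permutation). The groups of the other 4 members overlapped. Their mean shares differed by -0.92 points for mt-Co2, -0.98 for mt-Co3, -0.51 for mt-Cytb and 0.72 for mt-Co1, with exact permutation p from 0.20 to 0.70 before adjustment. Without mt-Nd1 and mt-Nd2 in the denominator the values were -0.18 for mt-Co2, -0.52 for mt-Co3 and 0.0881 for mt-Cytb. Leaving out single libraries moved these values, at their nearest to 0 for mt-Co2 to -0.39 points without Ctrl replicate 1, for mt-Co3 to -0.44 without cKO replicate 2 and for mt-Cytb to -0.15 without Ctrl replicate 2. mt-Co1, lower in FPKM, thus held 15.4% ± 1.69 of the cKO pool and 14.7% ± 0.478 of the Ctrl pool (SD, n = 3 each). The difference was -0.24 points without the library labelled cKO replicate 3 (17.3%), and 2.29 points without mt-Nd1 and mt-Nd2 in the denominator (p = 0.10, exact permutation).

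**Figure D4:**
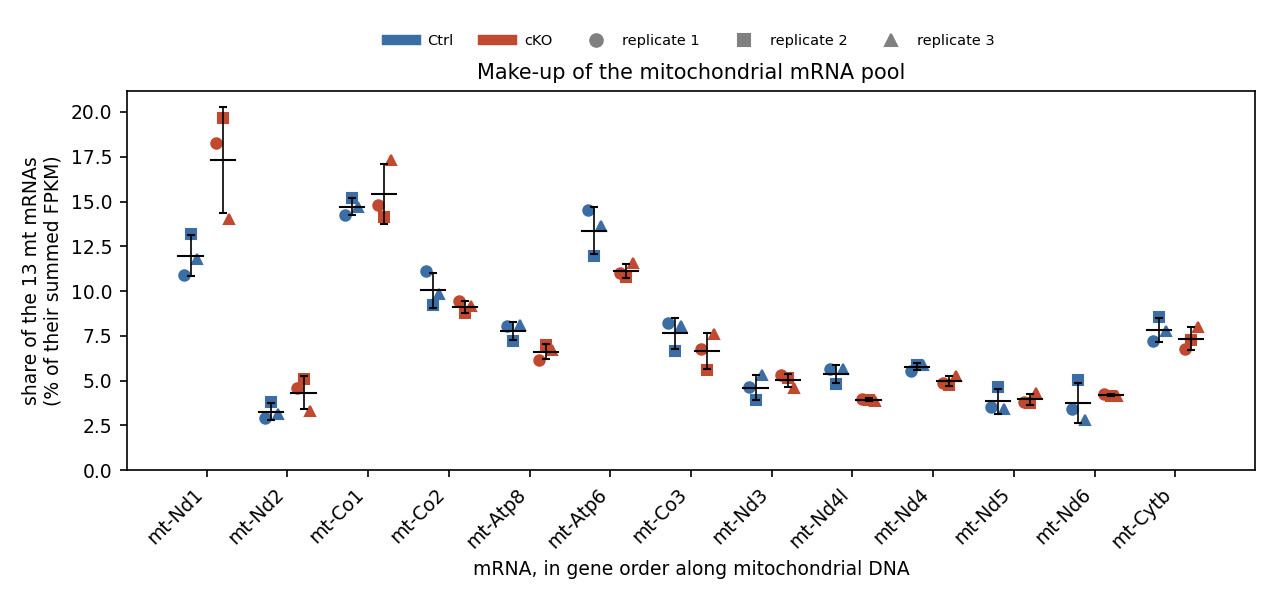
Share of each of the 13 mRNAs in their summed FPKM, by library, in gene order, with control libraries in blue, cKO libraries in red and black bars for mean and SD (n = 3). Red and blue symbols separate for mt-Atp8, mt-Atp6, mt-Nd4l and mt-Nd4 (lower in cKO) and for mt-Nd1 (higher in cKO, 14.0% to 19.7% against 10.9% to 13.2%), while those of mt-Co1, mt-Co2, mt-Co3 and mt-Cytb overlap.

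As a share of all FPKM in a library, the members took 10.03%, 8.43% and 9.30% in Ctrl replicates 1, 2 and 3 and 5.85%, 7.49% and 5.44% in cKO replicates 1, 2 and 3. Markers of cardiomyocytes differed between the groups in the same libraries, and those of red cells differed in part of them. All 14 cardiomyocyte markers were lower in the mutants by sign, 8 of them with an unadjusted p under 0.05 (55.0% and 9.43% of all genes), and their summed FPKM was 13530.4 to 16185 in control and 10908 to 13049 in mutant hearts. The 12 erythroid markers summed to 12.0% to 13.3% of all FPKM in control libraries, to 23.5% and 22.0% in cKO replicate 1 and the library labelled cKO replicate 3, and to 10.8% in cKO replicate 2. Summed FPKM of 9 endothelial markers (236 to 249 in Ctrl, 228 to 259.7 in cKO) and 11 epicardial and mesenchymal markers (459 to 467 and 404 to 536) overlapped between groups, and that of 6 macrophage markers did not (17.2 to 21.8 and 13.8 to 16.1). With the erythroid level of each library as a covariate the members differed by -0.55 to -0.22 (log2). Of them 1, mt-Co3, had an unadjusted p under 0.05, where 692 of 13260 genes were lower at that threshold (1251 without a covariate). With the cardiomyocyte level as a covariate the values were -0.60 to -0.33 and none (0) did, where 557 genes did. That level was 9.40 to 9.63 (mean log2) in control and 9.09 to 9.35 in mutant libraries. It did not overlap between groups, so this fit can hardly separate it from genotype and its count of 0 decides nothing. How far these cell types enter the result was not tested beyond these fits. Fewer cells of a type and less RNA per cell cannot be told apart in whole hearts.

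The nuclear genome supplies the remaining subunits of the same complexes. Of 9 nuclear genes of complex III, 7 were lower and 2 higher by sign, and 4 were lower with an unadjusted p under 0.05, where 55.0% of all genes were lower by sign and 9.43% with such a p, among them Uqcrh, a hinge subunit, at 334 ± 14.8 in Ctrl and 240.3 ± 26.0 FPKM in cKO (SD, n = 3 each). For complex IV 11 of 16 were lower, 4 of them and 2 of the 5 higher ones with an unadjusted p under 0.05, which 5.57% of all genes had and were higher. Complex V had 16 of 17 lower, 7 with an unadjusted p under 0.05. The median log2 fold changes of these lists were -0.18, -0.07 and -0.14, against -0.53 for the members, and with the cardiomyocyte covariate they were 0.036, 0.073 and 0.003. Leaving out single libraries also moved them, to -0.093 for complex III without Ctrl replicate 3, -0.034 for complex IV without cKO replicate 2 and -0.21 for complex V without Ctrl replicate 1. With all libraries no gene in them (0 of 42) passed an adjusted p of 0.05 in limma. Without the library labelled cKO replicate 3, 4, 6 and 6 genes of complexes III, IV and V were lower with an unadjusted p under 0.05 and 1 of complex IV higher, and an adjusted p under 0.05 was reached by 1 lower gene in each complex and 1 higher gene in complex IV. In that fit 8.82% of all genes were lower and 6.42% higher at an unadjusted p under 0.05, and 133 lower and 137 higher genes of 13260 had an adjusted p under 0.05. With all libraries the smallest adjusted p were those of Cox7a1, a subunit form of heart and skeletal muscle, at 84.0 ± 1.77 in Ctrl and 55.9 ± 5.27 FPKM in cKO (SD, n = 3 each, log2 -0.58, adjusted p = 0.0643 from limma), and Atp5k, subunit e of ATP synthase, at 120.3 ± 8.83 and 82.8 ± 1.58 FPKM (SD, n = 3 each, log2 -0.53, adjusted p = 0.0661).

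Factors that act on the members were examined by list as well. Of 29 assembly factors of complexes III to V, 19 were lower and 10 higher, with 3 lower and 1 higher at an unadjusted p under 0.05, close to the shares of all genes (9.43% lower and 5.57% higher). The 3 were Cmc1, a partner of newly made CO1, Atpaf1, a chaperone of the ATP synthase catalytic head, and Uqcc2, which binds newly made cytochrome b. Atpaf1 stood at 2.52 and 1.66 FPKM in cKO replicates 1 and 2 but at 6.81 in the library labelled cKO replicate 3, near the controls at 7.68, 7.19 and 7.13. Without that library 4 assembly factors were lower and 1 higher at an unadjusted p under 0.05 (8.82% and 6.42% of all genes in that fit), and 1 of them, lower, had an adjusted p under 0.05. None (0) of 18 genes of mitochondrial DNA transcription and replication had an unadjusted p under 0.05, against 15.0% of all genes in either direction, and 1 did without the library labelled cKO replicate 3. Among 23 genes of mitochondrial RNA processing and stability, 2 did, both higher, where 5.57% of all genes were called higher. Without that library 3 did, all higher, where 6.42% of all genes were. The 2 were Lrpprc, whose protein stabilises mitochondrial mRNAs, at 29.9 ± 2.22 in Ctrl and 36.9 ± 2.36 FPKM in cKO (SD, n = 3 each, log2 0.29, adjusted p = 0.207 from limma), and Rexo2, a mitochondrial exoribonuclease for short RNAs, at 26.0 ± 1.93 and 33.6 ± 1.84 FPKM (SD, n = 3 each, log2 0.36, adjusted p = 0.157 from limma). With all libraries none (0) of the genes in these 3 lists had an adjusted p under 0.05.

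Outside mitochondrial DNA, the genes whose log2 level over the 6 libraries was most like the mean of the members were Fbxo10 (Pearson r = 0.988), Snapc3 (0.988), Pde3a (0.986), Trappc3 (0.983) and Tie1 (0.982). They are the 5 highest of 9028 genes that averaged 5 FPKM or more, picked for this likeness, and nothing is read from the size of r. Tie1 is also one of the endothelial markers. Pde3a was at 7.72, 7.51 and 7.73 FPKM in Ctrl replicates 1, 2 and 3 and at 5.95, 6.50 and 5.47 FPKM in cKO replicates 1, 2 and 3, again lowest in the library labelled cKO replicate 3.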

How the data were processed

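Total RNA of pooled embryonic mouse hearts was depleted of ribosomal RNA and made into strand-specific libraries. The methods of the study describe mRNA purified with poly-T beads, without naming the embryonic libraries. The authors deposited 1 FPKM value per transcript and library. The submitters' processing notes name Bowtie2 2.2.8, HISAT2, StringTie 1.3.1, Cuffdiff 2.1.1 and build mm9, without roles. The annotation release and the handling of fragments with several matches are not given in the sources used here. Of 57676 Ensembl transcript identifiers, 57382 were found in GENCODE M21 (GRCm38), used for lengths, GC content, gene order and sequences. No coordinates are printed, as the builds differ. Of 2 mitochondrial rRNAs and 22 tRNAs looked up by symbol, none (0) was among the deposited values. Of 14 nuclear pseudogenes of mitochondrial genes looked up in the same way, 3 were present and were not analysed here.

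Transcript rows were summed per gene, and log2(FPKM + 1) was compared with limma 3.58.1 in R 4.3.3 (eBayes with trend, two-sided) over 13260 genes with FPKM of at least 1 in at least 3 libraries, with Benjamini-Hochberg adjustment over all of them. Such a fold change understates differences of low genes. Shares and ratios were compared by exact permutation over 20 splits. Read depth is unknown. The limma step was tested on simulated data. Members and lists were chosen with earlier results of these data known. Genes named besides the 13 mitochondrial mRNAs and Mrps5 were, of each list, up to 3 with the smallest p, and the 5 most like the members' mean. Alternatives covered the pseudocount, low-value filter, scaling, GC content, covariates, denominators, the replicate number as a block and each library left out. Counts of calls per list without cKO replicate 3 were added after seeing the data.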

Additional observations from a re-analysis of the deposited data

How the results depend on the processing

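Each member was lower in the mutants, with an adjusted p above 0.05, under all 19 alternatives fitted per member (114 of 114 values negative). The value nearest 0 was -0.01 for mt-Cytb after quantile normalization, and adjusted p over the members and settings ran from 0.0987 to 0.979. The count of 5 members with an unadjusted p under 0.05, where 1251 of 13260 genes were called lower, fell in several settings. It went to 0 with no filter on low values (1713 of 22153 genes called lower) and with GC correction (1113 of 13260). It was also 0 with both the replicate block and GC correction (1301) and with the cardiomyocyte covariate (557), which did not overlap between groups. The erythroid covariate gave 1 (692 genes). Leaving out 1 library gave 1 to 5. The count was 1 without Ctrl replicate 3 (1066) or cKO replicate 1 (962), and 3 without cKO replicate 3 (1169). With the replicate number as a block the count was 4 (1458). Same-numbered libraries correlated in their deviations from the group means at 0.217, 0.111 and 0.0901 for numbers 1, 2 and 3, each library best with its own number, but no source ties a number to a shared litter, so the block is given only as an alternative. Over all genes, the block gave 2221 calls at an unadjusted p under 0.05 in place of 1990, and the settings 769 to 2634, with 0 to 270 at an adjusted p under 0.05 in place of 11. Scaling to an equal total moved the median of all genes to -0.10 and the lower share of calls from 62.9% to 81.7%; scaling without mitochondrial and erythroid genes gave 73.6% and the erythroid covariate 50.9%.

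The difference in the share of mt-Co1 ran from -0.24 to 1.36 points without 1 library, turning negative without cKO replicate 3, and that of mt-Cytb turned to 0.0881 points without mt-Nd1 and mt-Nd2 in the denominator (added after seeing the data). Without those 2 genes the members' summed share differed by -0.62 points in place of -5.11. As a mean centred log-ratio the difference was -0.13 log2 units. The difference in the summed share ran from -7.20 to -3.71 points without 1 library. The medians (log2) of related lists moved as follows. GC correction, with or without the replicate block, gave 0.0584 for complex I mRNAs. The cardiomyocyte covariate gave -0.65 for complex I mRNAs, 0.0364, 0.0728 and 0.00274 for nuclear complexes III, IV and V, 0.0854 for assembly factors and -0.10 for transcription and replication. Scaling to an equal total gave -0.16 and -0.22 for nuclear complexes IV and V, -0.18 for assembly factors, -0.12 for transcription and replication and -0.0808 for RNA processing. Quantile normalization gave -0.16 for nuclear complex IV, and the erythroid covariate 0.0676 for RNA processing. Leave-one-out values ran from -0.37 to -0.047 for complex I mRNAs (median -0.23 with all libraries), from -0.0895 to -0.0193 for transcription and replication and from -0.0763 to 0.0285 for RNA processing. The cause was not tested. Adding nuclear pseudogene copies was not run. Mitochondrial rRNAs and tRNAs were not found among the deposited values, so removing them was not possible.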
